A study of Mus musculus with 17 samples.

Results

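Toll-like receptors (TLRs) are sentinel receptors of the innate immune system, and 10 genes of this family and its closest partners were examined in hearts that accumulate mutations in mitochondrial DNA (mtDNA). The genes were taken by name from the table of 56748 genes. They are the cell-surface receptors *Tlr2* and *Tlr4*, the endosomal receptors *Tlr3*, *Tlr7*, *Tlr8*, *Tlr9* and *Tlr13*, the accessory proteins *Cd14* and *Unc93b1*, and the adaptor *Myd88*. All 10 were found, each in 1 row, and all 10 were among the 16195 genes with enough counts to be tested. RNA was sequenced from the heart tissue of 8 control mice (Ctrl) and 9 *Polg* hMut mice (hMut) aged 12 to 16 months, and no treatment was given to either group. The hMut mice carried the genotype *Polg* iMut/iMut; +/Ckmm-cre, in which a cre driven by the muscle creatine kinase promoter switches on the proofreading-deficient POLG D257A in heart muscle, so that cells without this cre keep the wild-type cassette. The genotype of the Ctrl mice was not given more closely in the sources used here. The labels describe each library as a separate heart sample, hearts are named below by the number in their label, and p-values measure the spread between these samples.

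TLRs recognize molecules that are common in microbes or that are released by damaged cells. The surface receptors bind lipids and lipoproteins, whereas the endosomal receptors bind nucleic acids, and *Tlr9* binds unmethylated CpG DNA, of which mtDNA is a source. Apart from *Tlr3*, which uses the adaptor TRIF, the receptors signal through MyD88 to NF-κB and interferon regulatory factors, and in the heart they are carried by macrophages and other immune cells and in part by endothelial cells, fibroblasts and cardiomyocytes.

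Total counts per library lay between 32915159 and 46486964. The share of counts on mtDNA genes was 23.5% to 30.9% in the Ctrl hearts and 15.9% to 23.0% in the hMut hearts. Hearts 6 and 9 of the hMut group stood apart from the other libraries. In hMut heart 6, 31.1% of the tested genes lay above every Ctrl heart, and in hMut heart 9 the share was 27.9%, against 10.9% to 17.7% in the other 7 hMut hearts. Results that rest on these hearts are therefore given with and without them. By their *Xist* and Y-linked counts, 3 of the Ctrl and 2 of the hMut hearts came from females.

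The positions of 9 of the 10 genes are given on GRCm39. *Tlr7* (chrX:166087925-166113554) and *Tlr8* (chrX:166025692-166047325) are neighbours on the minus strand, and *Tlr13* is also X-linked (chrX:105186810-105204099). *Tlr9* (chr9:106099797-106104082) and *Myd88* (chr9:119165000-119170477) share a chromosome. *Tlr2* lies at chr3:83743579-83749074, *Tlr3* at chr8:45848702-45864117, *Tlr4* at chr4:66745821-66848521 and *Unc93b1* at chr19:3985186-3999340. *Myd88* overlaps the antisense gene *Acaa1a* and lies within *Slc22a14* on its own strand, which had too few counts to be tested, *Tlr4* holds the lncRNA ENSMUSG00000121059 on its own strand, and *Tlr3* overlaps the antisense lncRNA *Gm45542*. Whether reads were counted by strand was not given in the sources used here, so reads of *Myd88* cannot be told apart from those of *Acaa1a* where the 2 genes overlap.

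Start sites from RefSeq (GRCm38.p6) were at hand for 6 of the 10 genes, *Tlr2*, *Tlr3*, *Tlr8*, *Tlr9*, *Tlr13* and *Myd88*. The 250 bases before each start were searched on both strands for binding motifs of factors that act on immune genes. The search was chosen because these genes were high together in hMut hearts 6 and 9, and shared regulation was not tested. The motifs were the interferon-stimulated response element (ISRE, as GAAANNGAAA), the PU-box bound by the myeloid factor PU.1 (as GAGGAA) and the κB motif bound by NF-κB. Among all 32851 promoters of the table, 2.98% held an ISRE, 23.3% a PU-box and 7.25% a κB motif. The matches are printed 5′ to 3′ on the strand of the gene, in lower case with the motif in capitals, and each promoter was found once in GRCm39, from which the coordinates are given.
Tlr2, κB motif, chr3:83749048-83749118: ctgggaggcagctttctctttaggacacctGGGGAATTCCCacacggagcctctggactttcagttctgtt
Tlr3, κB motif, chr8:45863610-45863637: gttgtttctGGGAGTTTCCtgcttttga
Tlr8, PU-box on the opposite strand, chrX:166047367-166047432: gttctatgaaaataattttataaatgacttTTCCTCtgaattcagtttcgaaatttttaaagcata
Tlr9, PU-box, chr9:106099655-106099720: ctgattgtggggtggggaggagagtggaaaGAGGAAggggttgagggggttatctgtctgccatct
Tlr13, PU-box, chrX:105186768-105186833: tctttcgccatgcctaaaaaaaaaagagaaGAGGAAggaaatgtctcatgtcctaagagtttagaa
Myd88, ISRE, chr9:119169106-119169133: agcttctcgGAAAGCGAAAgaaggaggg
The PU-box matches were in 3 of the 6 promoters, those of *Tlr8*, *Tlr9* and *Tlr13*, and 0 were in those of *Tlr2*, *Tlr3* and *Myd88*. The κB matches were in *Tlr2*, where matches on both strands overlapped, and in *Tlr3*, and the ISRE match was in *Myd88*. The printed stretches of *Tlr3* and *Myd88* lie in exons of other annotated transcripts of these genes in GENCODE, and those of *Tlr2* and *Tlr13* do so for 27 and 24 bases. A match is a run of letters and shows no binding.

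In the Ctrl hearts, the genes were ordered by CPM (counts scaled to 1000000 per library) per kilobase of the gene length in the table, the scale used here to compare genes with each other. *Unc93b1*, the chaperone that carries endosomal receptors out of the endoplasmic reticulum, was highest at 6.43 ± 0.998 CPM per kb (SD, n = 8), and its range did not overlap that of the next gene. *Myd88* (4.11 ± 0.416) and *Tlr4* (3.91 ± 0.513) followed with overlapping ranges, and *Cd14* (2.84 ± 0.489) and *Tlr3* (2.71 ± 0.237) came next, also overlapping. *Tlr2* stood alone at 1.78 ± 0.173 CPM per kb. The other endosomal receptors were lowest, from *Tlr7* at 0.966 ± 0.106 through *Tlr13* at 0.688 ± 0.114 and *Tlr8* at 0.506 ± 0.144 to *Tlr9* at 0.250 ± 0.0776 CPM per kb, and each overlapped the next. Of the summed level of the 7 receptors per length, *Tlr4* made up 31.0% to 43.1% in the Ctrl hearts and *Tlr9* 1.76% to 3.81%.

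**Figure D1:**
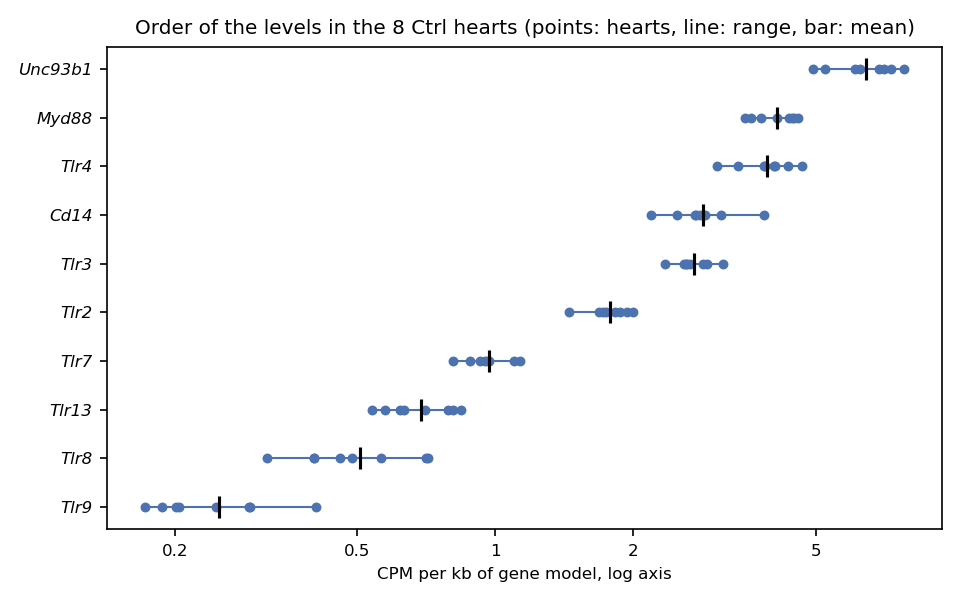
Level of each gene in the 8 Ctrl hearts, as CPM per kilobase on a logarithmic axis, with a point for each heart, a line for the range and a bar for the mean. *Unc93b1* leads at a mean of 6.43 and *Tlr9* is last at 0.25 CPM per kb.

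Of the 10 genes, 0 passed an adjusted p of 0.05 between hMut and Ctrl hearts in either direction by edgeR's quasi-likelihood test, where 3.48% of all tested genes were called higher and 1.14% lower. At an unadjusted p under 0.05 there were 4 genes, *Tlr4*, *Cd14*, *Myd88* and *Tlr13*, or 4 of 10 beside 25.8% of all tested genes. DESeq2, the tool that the study used, called 3 of them higher, *Tlr4* (adjusted p = 0.0214), *Cd14* (adjusted p = 0.0248) and *Myd88* (adjusted p = 0.0404), beside 6.13% of all genes. In edgeR the same 3 genes were called without hMut heart 2, in which 0 of the 10 genes was above every Ctrl heart (adjusted p = 0.0297 for *Tlr4* and *Myd88* and 0.0398 for *Cd14*, beside 6.99% of all genes). Without hMut heart 1, *Cd14* alone was called (adjusted p = 0.0381, beside 5.14%), and without hMut heart 4, *Tlr4* alone (adjusted p = 0.0353, beside 2.96%). The log2 fold change was above 0 for all 10 genes, which held for 50.3% of all tested genes, and its median was 0.51 for the 10 genes and 0.00 for all tested genes. Without hMut heart 6 the median over the 10 genes was 0.16, with 9 genes above 0, and without hMut hearts 6 and 9 it was 0.05, with 6 above 0. Neither edgeR fit called any of the 10 genes, beside 2.42% and 1.96% of all genes called higher. At an unadjusted p under 0.05 both fits had 3 genes, *Tlr4*, *Cd14* and *Myd88*, beside 21.9% and 18.6% of all genes. For each of the 10 genes the range of the hMut hearts overlapped that of the Ctrl hearts, and 0.543% of all tested genes were higher in every hMut heart than in every Ctrl heart.

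**Figure D2:**
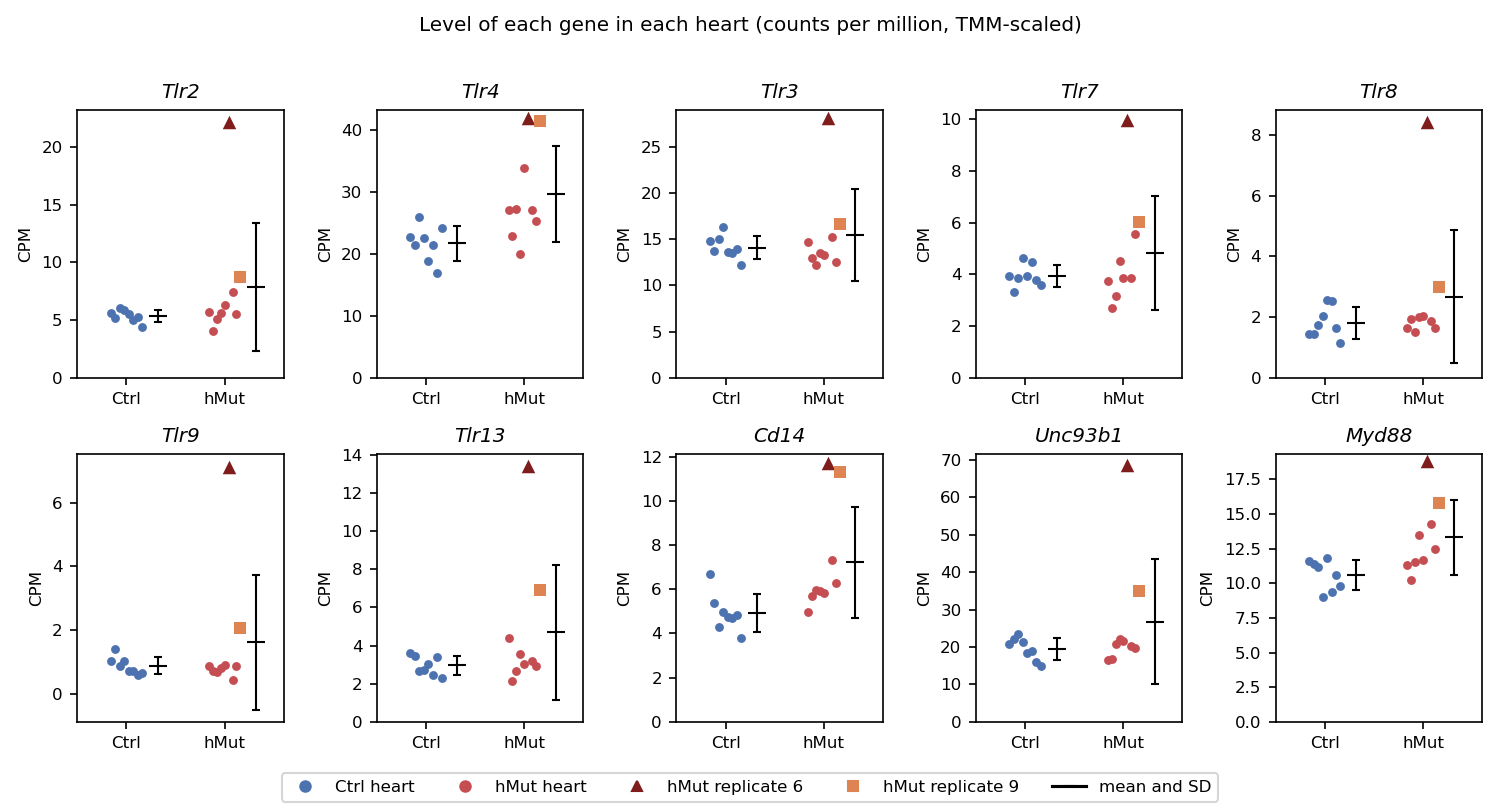
CPM of each of the 10 genes in 8 Ctrl and 9 hMut hearts on linear axes, with 1 point per heart and the mean and SD beside each group. hMut heart 6 (triangle) is highest for all 10 genes and hMut heart 9 (square) is above every Ctrl heart for all 10, while the other hMut hearts lie mostly among the Ctrl hearts.

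The hearts differed in how many of the 10 genes lay above the Ctrl range. In hMut hearts 6 and 9, all 10 genes lay above every Ctrl heart, beside 31.1% and 27.9% of all tested genes. In hMut heart 7 there were 4 (*Tlr2*, *Tlr4*, *Myd88* and *Cd14*), beside 17.7% of all tested genes. In hMut heart 1 there were 2 (*Tlr4* and *Tlr13*; 11.0% of all genes), in heart 5 there were 2 (*Tlr2* and *Tlr4*; 16.0%) and in heart 8 there were 2 (*Tlr7* and *Myd88*; 15.6%). Heart 3 had 1 (*Tlr4*; 13.7%), heart 4 had 1 (*Myd88*; 14.7%) and heart 2 had 0 (10.9%). In hMut heart 2, *Tlr2*, *Tlr7* and *Tlr13* lay below every Ctrl heart, beside 10.4% of all tested genes. *Tlr3* and *Tlr7* did so in heart 3 (13.9% of all genes) and *Tlr9* in heart 7 (17.3%).

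Of the surface receptors, *Tlr4*, the receptor for bacterial lipopolysaccharide, was the gene whose higher level was spread over the most hMut hearts. Its CPM in the Ctrl hearts had a lowest value of 16.9, a median of 22.0 and a highest of 25.9, and in the hMut hearts a lowest of 20.0, a median of 27.0 and a highest of 41.9. Hearts 6 (41.9) and 9 (41.4) were highest, hearts 1, 3, 5 and 7 were also above every Ctrl heart, and 3 hMut hearts lay among the Ctrl hearts. The log2 fold change was 0.45 (SE 0.135, adjusted p = 0.0616, edgeR). Without hMut hearts 6 and 9 it was 0.27 (SE 0.0991, adjusted p = 0.15). By sex, *Tlr4* had 16.9 to 21.4 CPM in 3 female and 21.5 to 25.9 CPM in 5 male Ctrl hearts, and this difference was not tested. In the hMut group the 2 females had 20.0 and 27.0 CPM and the 7 males 22.9 to 41.9 CPM, and with sex as a covariate the log2 fold change was 0.39 (SE 0.119, adjusted p = 0.0769). The lncRNA inside *Tlr4* was at 3.64 to 6.21 CPM in Ctrl and 4.89 to 10.1 CPM in hMut hearts.

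*Tlr2*, which pairs with *Tlr1* or *Tlr6* to bind lipoproteins, had 4.37, 5.38 and 6.02 CPM as its lowest, median and highest value in Ctrl hearts, and 4.02, 5.74 and 22.2 CPM in hMut hearts. Heart 6 held 4.14 times the Ctrl mean and heart 9 held 1.62 times, hearts 5 and 7 were just above the Ctrl hearts, and the mean of the 7 hearts other than 6 and 9 was 1.06 times the Ctrl mean. In the fit, *Tlr2* had a log2 fold change of 0.55 (SE 0.267, adjusted p = 0.198), which fell to 0.18 without heart 6 (adjusted p = 0.41).

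Among the endosomal receptors, *Tlr9*, the receptor for CpG DNA, had the highest value relative to the Ctrl mean in any heart. Its CPM had a lowest, median and highest value of 0.597, 0.783 and 1.41 in Ctrl hearts and 0.435, 0.850 and 7.13 in hMut hearts. These levels rest on 16 to 301 counts per heart. Heart 6 held 8.21 times the Ctrl mean and heart 9 2.39 times, whereas the mean of the other 7 hMut hearts was 0.864 times the Ctrl mean and none of them lay above the highest Ctrl heart. The log2 fold change of 0.90 (SE 0.487, adjusted p = 0.244) was 0.09 without heart 6 and -0.20 without hearts 6 and 9, with adjusted p = 0.873 and 0.634.

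The other receptors for single-stranded or ribosomal RNA had the same 2 highest hearts, 6 and then 9. *Tlr8* had 1.14, 1.69 and 2.56 CPM (lowest, median, highest) in Ctrl hearts and 1.51, 1.95 and 8.41 CPM in hMut hearts, and *Tlr13*, which binds bacterial ribosomal RNA in mice, had 2.32, 2.87 and 3.62 CPM in Ctrl hearts and 2.12, 3.21 and 13.4 CPM in hMut hearts. Heart 6 reached 4.63 times the Ctrl mean for *Tlr8* and 4.52 times for *Tlr13*, and heart 9 reached 1.64 and 2.34 times. *Tlr7* moved less, with 3.30, 3.90 and 4.62 CPM in Ctrl hearts and 2.70, 3.86 and 9.97 CPM in hMut hearts, and heart 6 at 2.53 times the Ctrl mean. The log2 fold changes were 0.56 for *Tlr8* (SE 0.323, adjusted p = 0.271), 0.67 for *Tlr13* (SE 0.307, adjusted p = 0.18) and 0.29 for *Tlr7* (SE 0.203, adjusted p = 0.361). Without hearts 6 and 9 they were 0.00, 0.08 and -0.01. All 3 genes are X-linked, and with sex as a covariate the values were 0.57, 0.64 and 0.27, so that sex changed them by less than their standard errors.

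*Tlr3*, the receptor for double-stranded RNA, had the smallest log2 fold change of the 10 genes. Its CPM had a lowest, median and highest value of 12.2, 13.8 and 16.3 in Ctrl hearts and 12.2, 13.5 and 28.1 in hMut hearts. Heart 6 was at 1.99 times the Ctrl mean and heart 9, at 1.18 times, was just above the Ctrl hearts. In the fit, *Tlr3* had a log2 fold change of 0.13 (SE 0.138, adjusted p = 0.548), and -0.06 (SE 0.0645) without hearts 6 and 9.

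**Figure D3:**
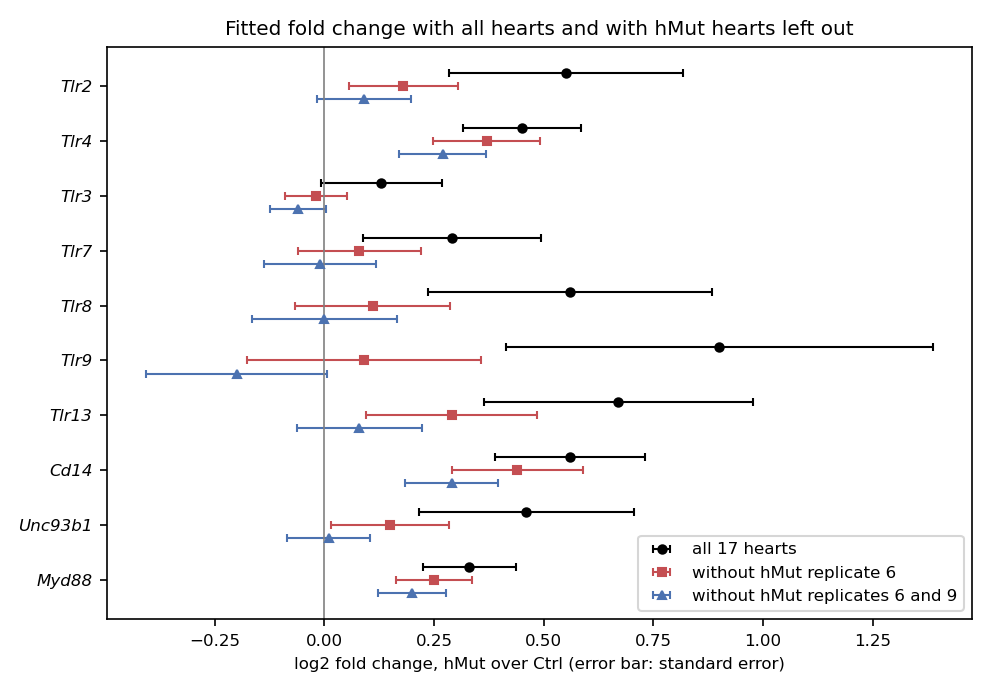
Fitted log2 fold change of hMut over Ctrl with its standard error for each gene, with all 17 hearts (circles), without hMut heart 6 (squares) and without hMut hearts 6 and 9 (triangles). Values for *Tlr4*, *Cd14* and *Myd88* stay at 0.20 or above in all 3 fits, while those for *Tlr3*, *Tlr7*, *Tlr8*, *Tlr9*, *Tlr13*, *Tlr2* and *Unc93b1* end at 0.09 or below.

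Of the partners of the receptors, *Cd14*, which hands lipopolysaccharide to TLR4, had 3.78, 4.79 and 6.68 CPM (lowest, median, highest) in Ctrl hearts and 4.95, 5.97 and 11.7 CPM in hMut hearts. Hearts 6 and 9 stood at 2.39 and 2.29 times the Ctrl mean, and heart 7 was also above every Ctrl heart. The lowest hMut heart was above the Ctrl median. Its log2 fold change was 0.56 (SE 0.172, adjusted p = 0.0683), and 0.29 (SE 0.106, adjusted p = 0.153) without hearts 6 and 9.

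*Unc93b1* had 14.9, 19.9 and 23.6 CPM in Ctrl hearts and 16.4, 20.7 and 68.5 CPM in hMut hearts. Heart 6 reached 3.51 times and heart 9 1.79 times the Ctrl mean, and the mean of the other 7 was 1.01 times the Ctrl mean, with none above the highest Ctrl heart. Its log2 fold change of 0.46 (SE 0.245, adjusted p = 0.237) was 0.01 without hearts 6 and 9.

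*Myd88*, the adaptor that all of these receptors but *Tlr3* share, had 9.04, 10.9 and 11.8 CPM in Ctrl hearts and 10.2, 12.5 and 18.8 CPM in hMut hearts. Hearts 4, 6, 7, 8 and 9 were above every Ctrl heart, and the other 4 lay among them. Its log2 fold change was 0.33 (SE 0.106, adjusted p = 0.0786), and 0.20 (SE 0.0782, adjusted p = 0.187) without hearts 6 and 9. *Acaa1a*, the peroxisomal thiolase gene that overlaps it, was at 65.8 to 80.5 CPM in Ctrl and 58.8 to 77.2 CPM in hMut hearts, with 60.4 and 58.8 CPM in hearts 6 and 9, and its log2 fold change was -0.09 (adjusted p = 0.296).

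Markers of macrophages were high in the same hearts. The 20 markers summed to 340.0 to 502.9 CPM in the Ctrl hearts, to 429.9 to 540.1 CPM in 7 hMut hearts, to 875.2 CPM in hMut heart 9 and to 1675.8 CPM in hMut heart 6. In heart 6, 18 of the 20 were above every Ctrl heart, and in heart 9, 17 were, beside 31.1% and 27.9% of all tested genes. The first 3 markers of the list, *Ptprc*, *Adgre1* and *Csf1r*, reached 82.1, 77.3 and 97.4 CPM in heart 6, where the highest Ctrl hearts had 27.9, 18.6 and 46.1 CPM. *Ptprc* encodes CD45, which other immune cells carry too, so its level is not specific to macrophages. Markers of resident macrophages did not move as one. *Lyve1* was below every Ctrl heart in heart 6, at 7.65 CPM against 11.6 to 19.0 CPM, but within that range in heart 9 (16.6 CPM). *Mrc1*, *Mertk* and *Timd4* were above every Ctrl heart in heart 6, at 56.1, 17.2 and 3.20 CPM, and *Cd163* (11.6 CPM) was within the Ctrl range. In these whole-tissue libraries, more cells of a type and more RNA per cell cannot be told apart.

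Markers of other immune cells did not all move together. The counts of markers above every Ctrl heart stand beside 31.1% of all tested genes in heart 6 and 27.9% in heart 9. The 8 T cell markers, led by *Cd3e*, *Cd3d* and *Cd3g*, were all above every Ctrl heart in hMut heart 6 and summed to 88.0 CPM there, against 2.19 to 11.3 CPM in Ctrl hearts and 8.59 CPM in heart 9. Of the 6 conventional dendritic cell markers, 4 were above every Ctrl heart in both heart 6 and heart 9, and *Flt3*, *Xcr1* and *Clec9a* reached 4.29, 9.05 and 11.3 CPM in heart 6. B cell markers summed to 10.1 CPM in heart 6 and 7.48 CPM in heart 9, within the 1.76 to 61.0 CPM of the Ctrl hearts, and 0 of the 7 were above every Ctrl heart. For plasmacytoid dendritic cells, whose *Siglech* was at 0.213 CPM in heart 6 within the Ctrl range of 0.174 to 0.729 CPM, 2 of 6 markers were above every Ctrl heart in heart 6 and 1 in heart 9, while their sum, of which *Cox6a2* (also a gene of striated muscle) makes up most, was 773.9 and 718.5 CPM there, below the lowest Ctrl heart at 959.6 CPM. For neutrophils 1 of 7 was in heart 6 and 2 in heart 9, and *Ly6g* had at most 3 counts in any heart. The counts for plasmacytoid dendritic cells and neutrophils were near or under the shares of all tested genes. Cardiomyocyte markers summed to 37670.4 CPM in heart 6 and 34006.8 CPM in heart 9, below the lowest Ctrl heart at 44321.1 CPM. Of the 8 fibroblast markers, 6 were above every Ctrl heart in each of hearts 6 and 9. *Col1a1* and *Col1a2* reached 213.4 and 292.0 CPM in heart 6, where the highest Ctrl hearts had 81.8 and 105.9 CPM. *Gsn* was below every Ctrl heart in both, at 691.3 and 653.7 CPM against a lowest Ctrl value of 813.6 CPM. The fibroblast markers summed to 1979.9 CPM in heart 6 and 1760.2 CPM in heart 9, within the 1599.0 to 1984.3 CPM of the Ctrl hearts. Of the 8 endothelial markers, 4 were above every Ctrl heart in heart 9 and 0 in heart 6. In heart 6, 3 of them were below every Ctrl heart, beside 28.8% of all tested genes. *Kdr* was called higher in hMut hearts (log2 fold change 0.39, adjusted p = 0.0407, edgeR). Without hearts 6 and 9 its log2 fold change was 0.40 (adjusted p = 0.0546, edgeR). Of the fits that left out 1 heart, *Kdr* was called only without Ctrl hearts 3 or 4 or hMut hearts 1, 2, 6 or 8. DESeq2 called *Kdr* and the fibroblast marker *Tcf21* higher, beside 6.13% of all genes. It called the cardiomyocyte markers *Myh6*, *Tnnt2*, *Tnni3* and *Pln* lower (adjusted p from 0.00928 to 0.0348), beside 500 of 16336 genes. In edgeR with all hearts, 0 of the 10 cardiomyocyte markers were called. The part of these cells in the levels of the 10 genes was not tested.

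**Figure D4:**
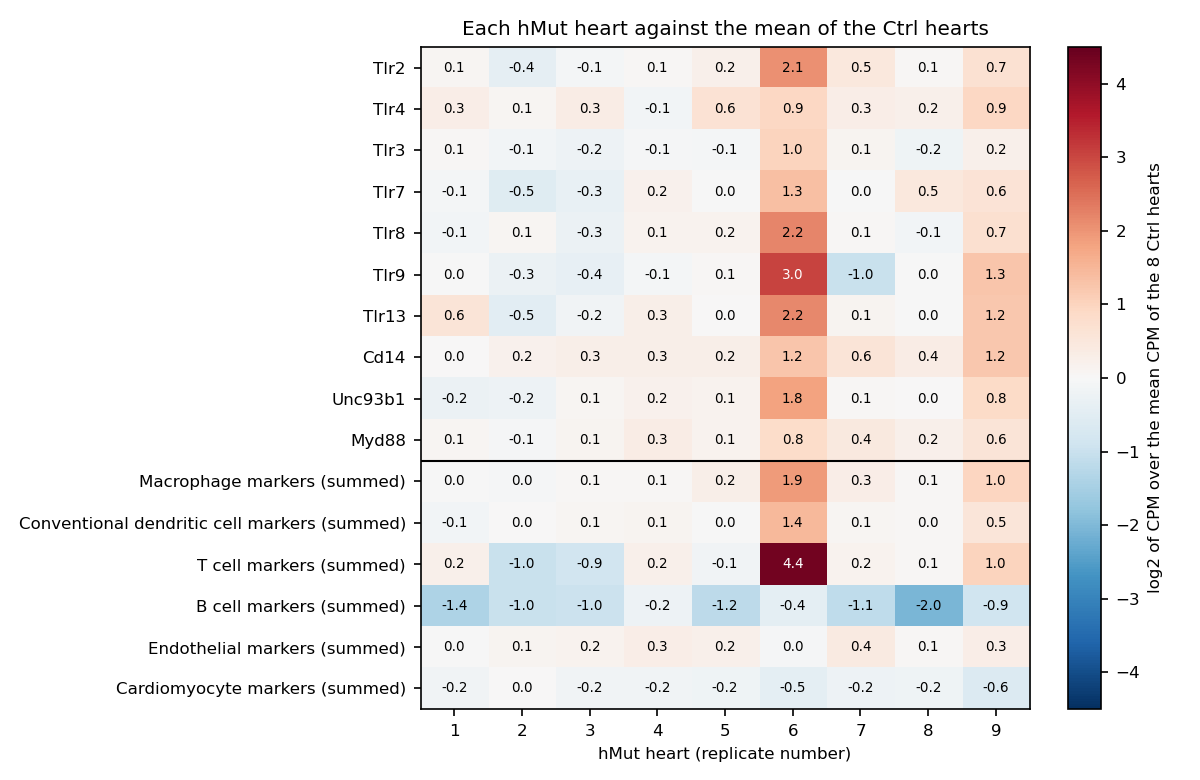
Log2 of the CPM in each hMut heart over the mean CPM of the 8 Ctrl hearts, for the 10 genes (above the line) and for summed cell type markers (below the line). The columns of hearts 6 and 9 are positive for all 10 genes and for macrophage, conventional dendritic cell and T cell markers, and negative for cardiomyocyte and B cell markers. Ctrl heart 3 is highest for each of the 7 B cell markers and raises the mean they are set against. Their sums in hearts 6 and 9 (10.1 and 7.48 CPM) lie within the Ctrl range of 1.76 to 61.0 CPM. The T cell sum of heart 9 (8.59 CPM) also lies within its Ctrl range, 2.19 to 11.3 CPM.

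Set against the macrophage markers of the same heart, the 10 genes fell into different ranks. The measure is the log2 CPM of a gene minus the mean log2 CPM of the 20 markers, with the mean of the Ctrl hearts set to 0, and it has no test. The markers themselves were 1.74 higher in heart 6 and 0.94 higher in heart 9 on this log2 scale. *Unc93b1* stayed within 0.1 of them in both, at 0.09 in heart 6, just above its Ctrl range of -0.09 to 0.06, and at -0.08 in heart 9, within it. *Tlr9* exceeded them in heart 6 by 1.35, above the Ctrl range of -0.25 to 0.56, and *Tlr2* by 0.32, above the Ctrl range of -0.24 to 0.21. *Tlr8* (0.53) and *Tlr7* (-0.39) lay within their Ctrl ranges in heart 6, and *Tlr13* (0.46) lay just above its range of -0.36 to 0.44. In heart 9 these 5 receptors were all within their Ctrl ranges, with *Tlr9* at 0.37, *Tlr13* at 0.31, *Tlr8* at -0.17, *Tlr2* at -0.23 and *Tlr7* at -0.32.

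The others lagged behind the markers in heart 6. *Myd88* was at -0.91, *Tlr4* at -0.78, *Tlr3* at -0.74 and *Cd14* at -0.47, each below its lowest Ctrl heart. In heart 9 *Tlr3* (-0.69) was again below its Ctrl range of -0.24 to 0.21, whereas *Tlr4* (0.00) lay within its range, *Myd88* (-0.35) lay just below its range of -0.34 to 0.28, and *Cd14* (0.27) just above its range of -0.40 to 0.26. In the other 7 hMut hearts *Cd14* ran from -0.04 to 0.36 and *Tlr9* from -1.17 to 0.02. With *Csf1r*, *Adgre1* and *Cd68* alone as the reference, *Tlr9* was at 1.28 and *Myd88* at -0.98 in heart 6. Of the summed level of the 7 receptors per length, *Tlr2* took 24.3% in heart 6 (14.4% to 17.8% in Ctrl hearts), *Tlr9* 6.78% (1.76% to 3.81%) and *Tlr13* 10.3% (5.22% to 8.04%), while *Tlr4* took 24.9% and *Tlr3* 17.9% (23.3% to 27.2%). In heart 9 the shares of *Tlr2* (16.0%), *Tlr4* (41.3%) and *Tlr9* (3.30%) were within their Ctrl ranges, *Tlr3* (17.7%) was below its range and *Tlr13* (8.91%) above.

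**Figure D5:**
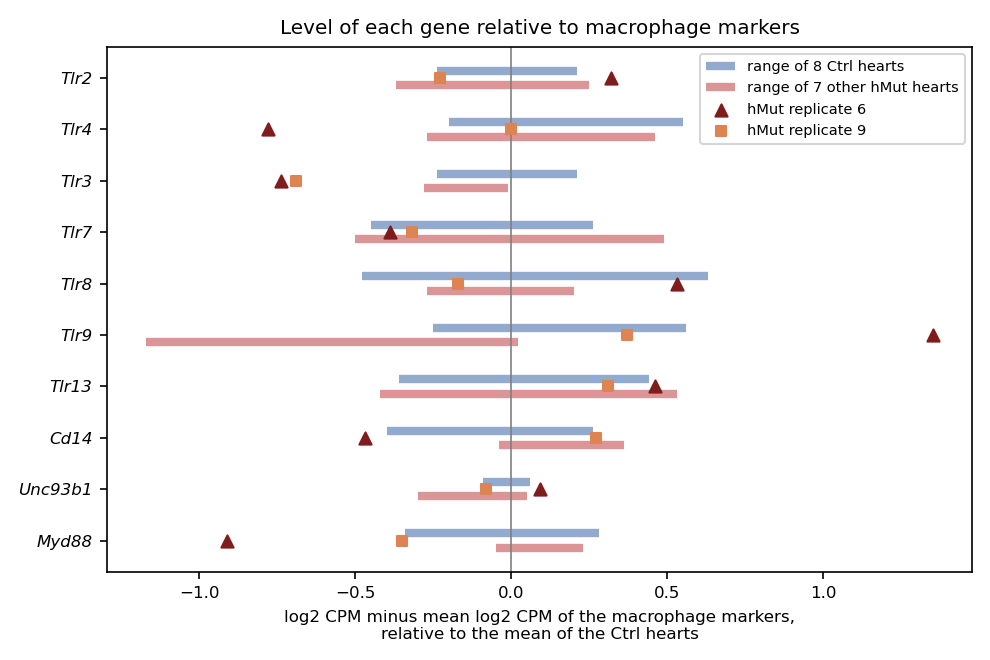
Log2 CPM of each gene minus the mean log2 CPM of 20 macrophage markers, relative to the mean of the Ctrl hearts, with bars for the range of the 8 Ctrl hearts and of 7 hMut hearts and symbols for hMut hearts 6 and 9. *Tlr9* in heart 6 lies at 1.35, and *Myd88*, *Tlr4* and *Tlr3* lie at -0.91, -0.78 and -0.74.

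Of 71 other genes of the TLR pathway, 65 were tested, and 2 were called higher and 0 lower in hMut hearts, beside the 3.48% and 1.14% of all tested genes given above. Their median log2 fold change was 0.13, and 22 had an unadjusted p under 0.05, beside 25.8% of all tested genes. Without hMut heart 2, 7 were called higher, *Ctsl*, *Tril*, *Nfkb2*, *Rela*, *Traf3*, *Icam1* and *Irf7*, beside 6.99% of all genes in that fit. *Ctsl*, the lysosomal protease cathepsin L, which can cleave endosomal TLRs, was at 147.2 to 183.2 CPM in Ctrl hearts and above that range in 8 of 9 hMut hearts, with heart 9 highest at 286.1 CPM. Its log2 fold change was 0.46 (SE 0.0878, adjusted p = 0.00539) and remained 0.41 (SE 0.0826, adjusted p = 0.0101) without hearts 6 and 9. *Tril*, an accessory protein of TLR3 and TLR4, was at 7.19 to 8.50 CPM in Ctrl hearts and above that range in 8 of 9 hMut hearts. Its log2 fold change was 0.33 (SE 0.0871, adjusted p = 0.0371), and 0.30 (adjusted p = 0.0621) without heart 6. The call of *Tril* was lost in 12 of the 17 fits that left out 1 heart, those without Ctrl hearts 1, 2, 5, 6, 7 or 8 or hMut hearts 3, 4, 5, 6, 7 or 9, whereas *Ctsl* was called in all 17. Neither gene was highest in heart 6.

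In the other groups of the pathway, 0 genes were called in either direction by edgeR, with 15 of 47 at an unadjusted p under 0.05. DESeq2 called *Nfkb2* and *Icam1* in them (adjusted p = 0.0412 and 0.0465), beside 6.13% of all genes called higher. Calls by limma-voom were these and *Traf3*, beside 1175 of 16195 genes called higher. The gene with the smallest edgeR adjusted p of each group is named here. Of 4 other TLRs tested this was *Tlr6*, a partner of *Tlr2* (log2 fold change 0.73, adjusted p = 0.13), at 0.32 without hearts 6 and 9. Of 4 other TIR adaptors it was *Pik3ap1* (0.72, adjusted p = 0.221; -0.04 without hearts 6 and 9, and 0.21 by DESeq2), and of 15 kinases and ubiquitin ligases *Traf3* (0.20, adjusted p = 0.1). Of 8 transcription factors it was the NF-κB subunit *Nfkb2* (0.24, adjusted p = 0.0721), which was above every Ctrl heart in 7 of 9 hMut hearts. Of 8 inhibitors it was *Tollip* (-0.11, adjusted p = 0.186; -0.05 without hearts 6 and 9), and of 8 tested inducible targets the adhesion molecule *Icam1* (0.51, adjusted p = 0.0955), at 0.28 without hearts 6 and 9. In heart 6, 44 of the 65 tested genes lay above every Ctrl heart, and in heart 9, 36 did, beside the 31.1% and 27.9% of all tested genes given above.

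The kinases and ubiquitin ligases had a median log2 fold change of 0.02 and the inhibitors one of -0.01. The median was 0.1 for ligand-binding and accessory proteins and 0.19 for transcription factors. It was 0.2 for the other TIR adaptors and for the genes of receptor folding, trafficking and cleavage. The medians were larger for the other TLRs (0.66) and for the inducible targets (0.52), and fell to -0.04 and -0.09 without hearts 6 and 9. A few genes outside the naming rule were singled out after their values were seen. *Irf7*, the interferon regulatory factor downstream of TLR7 and TLR9, was at 10.9 to 17.6 CPM in Ctrl hearts, 220.4 CPM in heart 6 and 70.8 CPM in heart 9 (log2 fold change 1.72, adjusted p = 0.0727). Without heart 6 its log2 fold change was 0.80 (adjusted p = 0.134), without hearts 6 and 9 it was 0.34 (adjusted p = 0.249), and by DESeq2 it was 0.73 (adjusted p = 0.117). *Il12b*, a cytokine gene of activated dendritic cells, had 157 counts in heart 6, 11 in heart 9 and 0 to 5 in all other hearts. *Tlr12*, a receptor for profilin, had 233 counts in heart 6 and 0 to 22 in the others. *Ifnb1*, which encodes interferon-β, had at most 3 counts in any heart, and 0 in hearts 6 and 9, which allows a level of up to 3 counts, or 0.0676 to 0.0951 CPM across the libraries, by counting error alone.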

How the data were processed

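Poly(A)-selected RNA from heart tissue of 8 Ctrl and 9 hMut mice was sequenced on a NovaSeq X Plus. The authors trimmed and filtered reads by fastp, mapped them by HISAT2 (2.2.1) on GRCm39 and assigned them to genes by featureCounts (2.0.6). What they deposited is the raw count of each of 56748 genes, with no normalization. Near-identical copies, overlapping genes and antisense genes can share reads, and the strand setting of the counting was not given in the sources used here.

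Genes were tested on the counts with the quasi-likelihood test of edgeR (4.0.16, R 4.3.3), with TMM factors, filterByExpr and no term beside genotype. Benjamini-Hochberg adjustment ran over all 16195 genes tested, at a threshold of 0.05. The standard error is the size of the log2 fold change over the root of F. Levels are CPM, counts scaled to 1000000 on the TMM library size, divided by the gene length of the table where genes are compared with each other. The test was tried on simulated counts with known changes before use.

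The alternatives were DESeq2 (1.42.0), limma-voom with quality weights (3.58.1), other normalizations and filters, the replicate number as a block, a sex term and libraries left out. The sex of a heart was taken from its *Xist* and Y-linked counts. The 10 genes, the lists and the alternatives were chosen with earlier results of these data known. Beside the 10 genes, the text names each pathway gene past the threshold, otherwise the one of each list with the smallest adjusted p, and the first 3 markers of a list where a level is given. *Cd68*, *Lyve1*, *Siglech*, *Ly6g*, *Irf7*, *Rela*, *Il12b*, *Tlr12*, *Ifnb1*, *Mrc1*, *Mertk*, *Timd4*, *Cd163*, *Cox6a2*, *Col1a1*, *Col1a2*, *Gsn*, *Tcf21*, *Myh6*, *Tnnt2*, *Tnni3*, *Pln* and *Kdr* are named beyond this rule, with their values in view. The endothelial and fibroblast marker lists had median log2 fold changes of 0.11 and 0.12. Figures were drawn with matplotlib (3.10.9) in Python (3.11.15). Intervals and floors cover counting error only.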

Additional observations from a re-analysis of the deposited data

Results flagged for a closer look

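Each of the 10 genes was examined in both groups for a single heart far from the rest, by the gap to the nearest heart as a share of the group's range on the log2 scale (Dixon's criterion at 95%). Of 20 groups examined, 3 had such a heart, and all 3 were hMut heart 6. Chance gives about 1 in 20 for independent groups, but these share the same 17 hearts, so the 3 cannot be set against that rate. *Tlr2* was at 22.2 CPM there, with a gap of 0.548 of the range. *Tlr3* was at 28.1 CPM, with a gap of 0.627. *Tlr8* was at 8.41 CPM, with a gap of 0.604. For the other 7 genes hMut heart 6 was also highest, but the next heart, hMut heart 9, was nearer to it or the range was wider.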

How the results depend on the processing

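Of the 10 genes, 0 were called lower in all 30 alternatives, and 0 were called higher in the edgeR test of all hearts. DESeq2 called 3 higher with its replacement of outlying counts and 3 without it (of 8 with an adjusted p), and limma-voom with sample quality weights called 2. Of all genes, DESeq2 with replacement called 6.13% higher and limma-voom 1175 of 16195. Leaving out 1 heart gave 0 to 3, with *Cd14* called without hMut heart 1, *Tlr4* without hMut heart 4, and *Tlr4*, *Cd14* and *Myd88* without hMut heart 2. The adjusted p over all alternatives ran from 0.0211 to 0.184 for *Tlr4*, from 0.0244 to 0.201 for *Cd14* and from 0.0297 to 0.263 for *Myd88*, and the other 7 genes were past the threshold in 0 alternatives. The log2 fold change turned negative for *Tlr3* with limma-voom (-0.019), without hMut heart 6 (-0.022), without hMut hearts 6 and 9 (-0.064) and without hMut heart 6 and Ctrl hearts 2 and 3 (-0.014), for *Tlr9* with limma-voom (-0.059) and without hMut hearts 6 and 9 (-0.204), and without hMut hearts 6 and 9 also for *Tlr7* (-0.011) and *Tlr8* (-0.003). Leaving out 1 heart gave *Tlr3* values from -0.022 to 0.172. Leaving out hMut heart 6 moved the log2 fold change of *Tlr9* from 0.90 to 0.09, *Tlr8* from 0.56 to 0.11, *Unc93b1* from 0.46 to 0.15 and *Tlr13* from 0.67 to 0.29. DESeq2 with replacement of outlying counts gave 0.10 for *Tlr8* and 0.07 for *Tlr9*. Of the pathway genes, 2 were called higher in the edgeR test of all hearts, 4 by DESeq2 with and 4 without replacement, 5 by limma-voom, and 1 with no filter on low counts, with sex as a covariate, without hMut hearts 6 and 9 and without hMut heart 6 and Ctrl hearts 2 and 3, where 1 gene, *Nfkbia*, was called lower. Leaving out 1 heart gave 1 to 7, with 7 without hMut heart 2 (beside 6.99% of all genes) and 1, *Ctsl*, in 12 of 17 such fits. *Ctsl* was called in all 30 alternatives. With the replicate block 0 of the 10 genes and 1 pathway gene were called. The deviations of same-numbered hearts from the mean of their own group, over the tested genes, correlated between -0.225 and 0.339 in 8 pairs. By these deviations 1 heart correlated best with its own number, and the numbers mark no shared animal. Scaling to nuclear counts alone moved 11 of 20 group means of the 10 genes by more than 1 SD, and the 3-marker reference moved 0 of 10 ratios so far. These are means within a group and not differences between groups. In the edgeR fit without mtDNA genes, 0 of the 10 genes were called. The log2 fold changes of *Tlr4*, *Cd14* and *Myd88* were 0.446, 0.552 and 0.323 there, against 0.449, 0.555 and 0.326 with mtDNA genes. The cause of the changes between alternatives was not tested. Depth limits *Tlr9* most, at 16 counts in its lowest heart.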
